A study of Mus musculus with 6 samples.

Results

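The natriuretic peptide system of the heart was followed across mouse hearts exposed to the proteasome inhibitor carfilzomib, with or without electroacupuncture. It was represented by 7 genes of the 26835 in the deposited table, chosen by symbol: the peptide genes Nppa and Nppb, the receptor genes Npr1, Npr2 and Npr3, and the protease genes Corin and Furin. No symbol was repeated in the table, and all 7 genes were among the 10329 tested, which had a mean of at least 1 FPKM (fragments scaled to transcript length and library size) over the 6 libraries. Npr3 reached that level only through CFZ_EA, since its mean over the CFZ and control libraries was 0.819 FPKM.

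All hearts came from C57BL/6 mice labelled as wild type, 7 to 8 weeks old and weighing about 20 g. CFZ_EA mice had intraperitoneal carfilzomib at 8 mg/kg together with electroacupuncture (current passed through needles) at the acupoint PC6. CFZ mice had the same dose of carfilzomib alone, and control mice had an intraperitoneal injection of 10% DMSO. Each group had 2 libraries. All 6 carry days 0, 2, 4 and 6, with no event tied to a day, and the labels name neither a sham needling group nor the part of the heart that was taken.

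Atrial natriuretic peptide (ANP, from Nppa) and B-type natriuretic peptide (BNP, from Nppb) are hormones that cardiomyocytes release when the heart wall is stretched, and they lower blood volume and pressure. In the adult heart Nppa is made mainly in the atria, and both genes can be switched on in stressed ventricles. The precursors are cut by proteases, pro-ANP by corin at the cardiomyocyte surface and pro-BNP by furin or corin. The receptor encoded by Npr1 is a guanylyl cyclase that answers ANP and BNP with cyclic GMP, the one encoded by Npr2 is a guanylyl cyclase for C-type natriuretic peptide, and the one encoded by Npr3 takes up and clears the peptides.

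The peptide genes lie side by side on chromosome 4 of GRCm38, with Nppb at 147985788 to 147987205 and Nppa at 148000722 to 148002079, both on the plus strand and 13516 bases apart. The bases before each start are shown because both neighbours hold the letters GATAA and TATAAA, explained below, while their levels followed different libraries. Both sequences are the plus strand of GRCm38.p6 and come from RefSeq, 250 bases up to the RefSeq start, at chr4:148000472-148000721 for Nppa and chr4:147985650-147985899 for Nppb. Capitals mark matches to GATAA (bound by GATA factors), GGAATG (the M-CAT motif), TCACACC (bound by T-box factors), TATAAA (the TATA box) and AAGTG (bound by NK2 homeobox factors), searched on both strands, and no matches overlapped in these windows.
Nppa: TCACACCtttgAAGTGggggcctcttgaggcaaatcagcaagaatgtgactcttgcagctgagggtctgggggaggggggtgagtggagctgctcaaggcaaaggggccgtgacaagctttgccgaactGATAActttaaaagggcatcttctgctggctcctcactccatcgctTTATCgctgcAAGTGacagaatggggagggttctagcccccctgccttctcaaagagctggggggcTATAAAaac
Nppb: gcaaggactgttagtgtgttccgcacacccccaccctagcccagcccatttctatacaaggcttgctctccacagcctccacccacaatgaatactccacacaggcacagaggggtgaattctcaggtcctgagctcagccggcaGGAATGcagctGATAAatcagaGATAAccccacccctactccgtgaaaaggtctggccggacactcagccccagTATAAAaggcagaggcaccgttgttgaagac

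Both windows held 2 GATAA matches, which began 121 and 75 bases before the start in Nppa (the second on the minus strand) and 94 and 83 bases before it in Nppb. Nppa had in addition 1 TCACACC match and 2 AAGTG matches, and Nppb had 1 GGAATG match. A TATAAA match began 9 bases before the start of Nppa and 31 bases before that of Nppb. Of the 32851 RefSeq windows of this length, 22.6% held at least 1 match to GATAA, 12.6% to GGAATG, 3.33% to TCACACC, 12.4% to TATAAA and 40.7% to AAGTG. The share with 2 or more matches was not computed. All 7 genes matched a RefSeq entry, and of the other 5 only Furin, at 1 of its 2 starts, held any of these letters. The motifs were chosen with the sequences in view, and the RefSeq start of Nppb lies 112 bases inside the gene model of the deposited table.

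Estimated counts totalled 65578510 and 75742448 in CFZ_EA, 65144234 and 63430597 in CFZ, and 57360755 and 50013990 in control libraries. Cardiomyocyte genes were abundant in every library: 8 markers summed to between 15396 and 17443 FPKM. Control replicate 2 stood apart: a first principal component holding 37.2% of the variance placed it at 48.0 and the other libraries between -22.1 and 0.37. Its 8 fibroblast markers summed to 1036 FPKM, against 127 to 203 FPKM elsewhere, and its 8 macrophage markers to 916 FPKM, against 237 to 313 FPKM elsewhere. The atrial markers also differed between libraries, from 27.5 FPKM for the sum of 10 genes in CFZ replicate 2 to 1862 FPKM in CFZ_EA replicate 2.

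By mean level over the 6 libraries, in FPKM, which is per transcript length, the order was Nppa (1320), Nppb (188), Corin (12.3), Npr2 (10.96), Furin (9.05), Npr1 (7.67) and Npr3 (1.08). The ranges of Nppa and Nppb over the libraries overlapped, as did those of Corin and Npr2, of Npr2 and Furin, and of Furin and Npr1. Within every library, however, Corin exceeded Npr2 and Npr2 exceeded Furin. Furin exceeded Npr1 except in control replicate 1, at 8.10 against 8.14 FPKM. Nppa exceeded Nppb except in CFZ replicate 2, at 187 against 242 FPKM. Nppb lay above Corin and Npr1 above Npr3 with no overlap. The highest library exceeded the lowest by 20.8 times for Nppa, 6.09 times for Npr3 and 3.64 times for Nppb, but by 1.18 to 1.43 times for the other 4 genes.

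**Figure D1:**
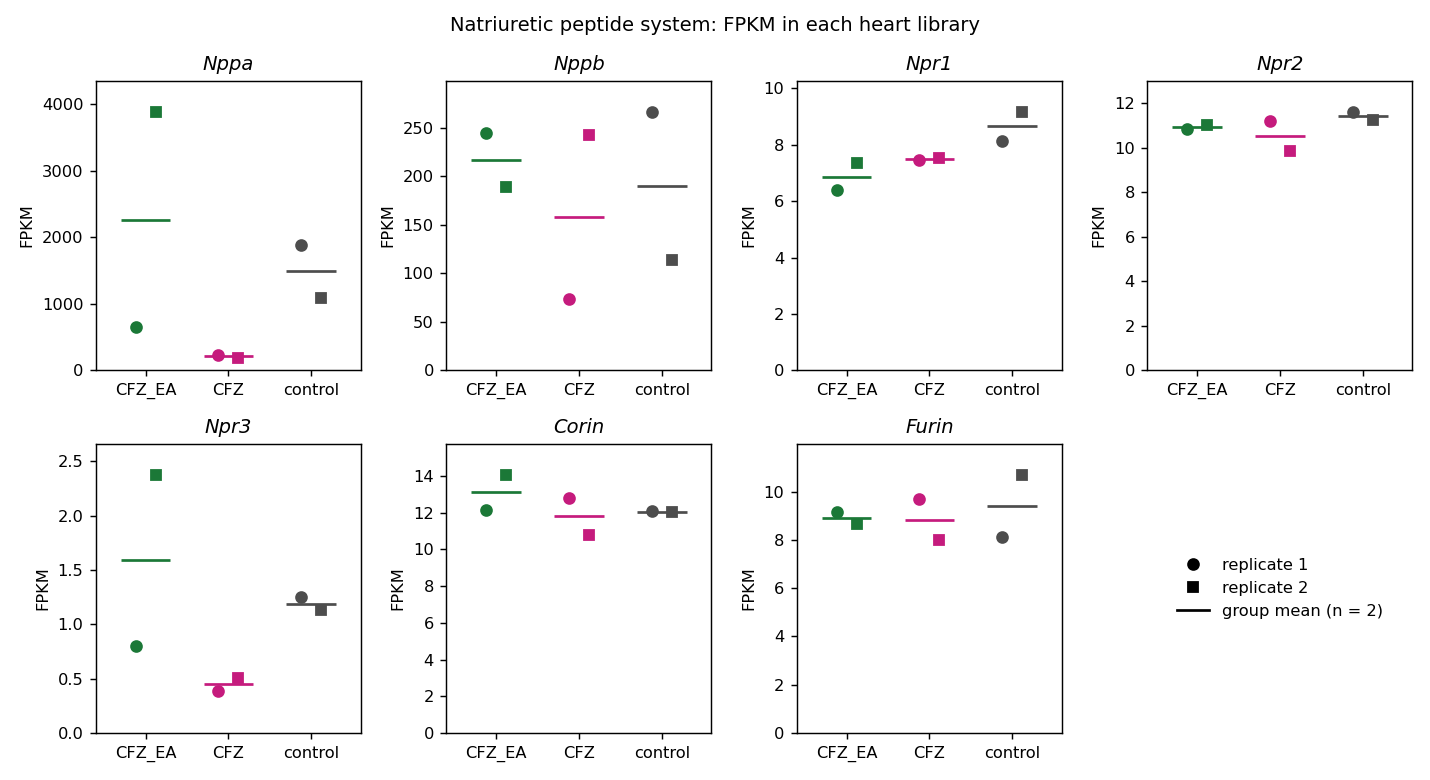
FPKM of the 7 genes in each heart library, grouped as CFZ_EA, CFZ and control; circles are replicate 1, squares replicate 2 and lines the mean of 2. Nppa spans 187 to 3882 FPKM and Npr3 0.390 to 2.38 FPKM, while Npr1, Npr2, Corin and Furin stay within narrow ranges.

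None of the 7 genes passed the test over all genes in any of the 3 comparisons, and the largest fold changes among the 7 were those of Nppa and Npr3. Both were lower in CFZ than in control hearts and higher in CFZ_EA than in CFZ hearts. For CFZ against control edgeR called 0 of 7, where it called 0.029% of all tested genes, and DESeq2 called 0 of 7 where it called 1.34%. On log2(FPKM + 1), limma called 0 of 7 and 2 of all 10329 tested genes. At an unadjusted p under 0.05 there were 2 of 7, Nppa and Npr3, against 7.72% of all genes in either direction and 5.9% lower. In 4 of 7 the FPKM values of the groups did not overlap, all of them lower in CFZ (Nppa, Npr1, Npr2 and Npr3), against 33.3% of all genes in either direction, 12.5% higher and 20.8% lower. Counts without overlap rest on FPKM, which does not carry the scaling that edgeR applied, and can differ under that scaling. The median log2 fold change was -0.15 over the 7 genes and -0.0034 over all genes tested.

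For CFZ_EA against CFZ edgeR again called 0 of 7, against 0.0194% of all genes, with Nppa and Npr3 at an unadjusted p under 0.05, both of them higher in CFZ_EA, against 3.09% of all genes, 2.01% higher and 1.07% lower. DESeq2 called 1, Nppa, where it called 0.532% of all genes. On log2(FPKM + 1), limma called 0 of 7 and 2 of all 10329 tested genes. The groups did not overlap for 3 of 7, with Nppa and Npr3 higher and Npr1 lower in CFZ_EA. Over all genes 32.8% did not overlap, 15.1% higher and 17.7% lower. Npr3 was tested only through CFZ_EA, where its mean was highest. It therefore lends no support in the counts at an unadjusted p or without overlap. For CFZ_EA against control edgeR, DESeq2 and limma each called 0 of 7. Of all genes edgeR and limma called 0% and DESeq2 0.503%. At an unadjusted p under 0.05 there were 0 of 7, against 5.13% of all genes, 1.47% higher and 3.66% lower. There 3 of 7 did not overlap in FPKM, Corin being higher and Npr1 and Npr2 lower in CFZ_EA, against 32.6% of all genes, 10.5% higher and 22.1% lower. The FPKM values do not carry the scaling that edgeR applied, so the genes without overlap can differ under it. With that scaling the log2 fold change of Npr2 for CFZ_EA against control was -0.0011. The sign of that value turned in 9 of 18 alternative settings. The first and second comparisons share the CFZ libraries, so a low value there moves both. With 2 libraries a group, p = 0.333 is the smallest value an exact permutation test (two-sided) can give, and none was used.

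**Figure D2:**
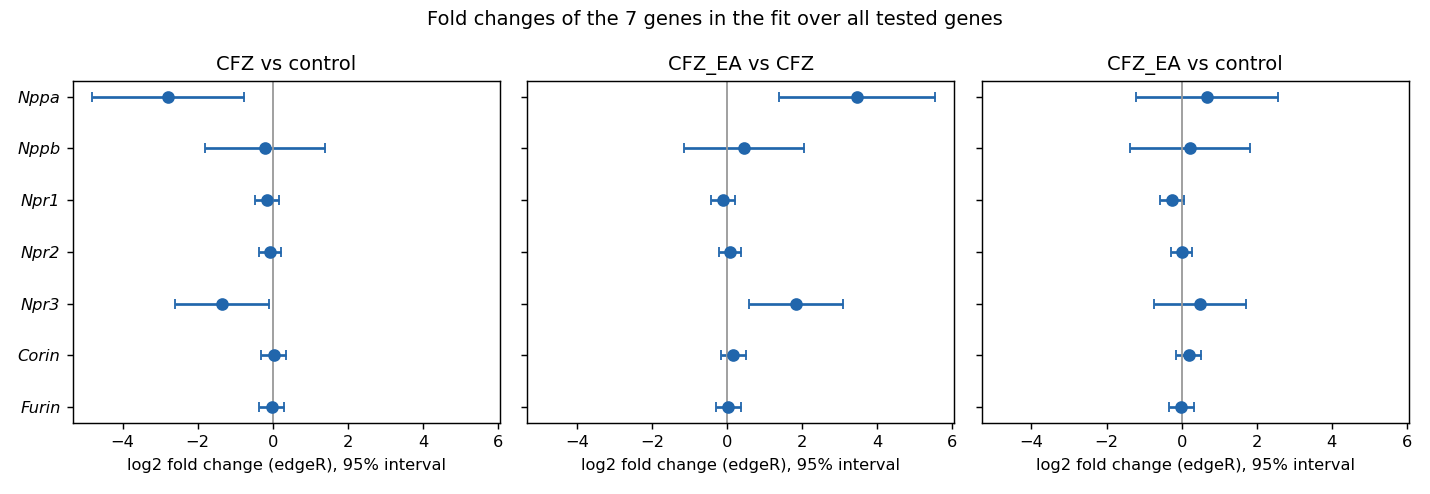
Log2 fold changes of the 7 genes from edgeR with 95% intervals, for CFZ against control, CFZ_EA against CFZ and CFZ_EA against control. The intervals of Nppa and Npr3 lie to one side of 0 in the first and second panels before any adjustment for the number of genes, and those of the other 5 genes include 0 in every panel. Npr3 was tested only through its CFZ_EA level.

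Nppa, the gene of ANP (ENSMUSG00000041616), measured 646 and 3882 FPKM in CFZ_EA hearts, 233 and 187 FPKM in CFZ hearts, and 1887 and 1083 FPKM in control hearts. The CFZ libraries lay below all others, and the CFZ_EA libraries lay on either side of the control libraries, 1 of them below both and 1 above both. Among all genes of a library ordered by FPKM it ranked 78 and 22 in CFZ_EA, 204 and 252 in CFZ, and 31 and 48 in control. It took 0.0609% and 0.368% of the counts in CFZ_EA, 0.0220% and 0.0177% in CFZ, and 0.178% and 0.103% in control.

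Mean Nppa levels were 2264 ± 2289 FPKM in CFZ_EA, 210 ± 33.1 FPKM in CFZ and 1485 ± 568 FPKM in control (SD, n = 2 each). Between CFZ and control hearts Nppa had a log2 fold change of -2.79 ± 0.82 (SE), with a 95% interval of -4.80 to -0.78 (edgeR adjusted p = 0.608). With 1 library left out it ran from -3.19 to -2.25 and was negative each time. Without control replicate 2 and CFZ_EA replicate 2 together it was -3.19 (edgeR adjusted p = 0.00687), but control and CFZ_EA were then single libraries assumed to vary like the CFZ pair, in which Nppa differed 1.25-fold, against 6.01-fold in CFZ_EA and 1.74-fold in control.

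For CFZ_EA against CFZ the log2 fold change of Nppa was 3.46 ± 0.85, with a 95% interval of 1.38 to 5.53 (edgeR adjusted p = 0.9997, DESeq2 adjusted p = 0.0404). It was 1.62 without CFZ_EA replicate 2 and 4.25 without CFZ_EA replicate 1. The CFZ_EA libraries differed 6.01-fold, and 0.0871% of all tested genes differed more between them on the log2(FPKM + 1) scale. Against control the log2 fold change was 0.67 ± 0.77 (edgeR adjusted p = 0.905), and it was -1.17 without CFZ_EA replicate 2.

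Most of the genes that mark atrial cardiomyocytes were, like Nppa, lowest in the CFZ libraries. The sum of 10 such genes, Nppa not among them, was 335 and 1862 FPKM in CFZ_EA, 114 and 27.5 FPKM in CFZ, and 982 and 545 FPKM in control. For CFZ against control 8 of 9 tested atrial markers had a negative log2 fold change, with a median of -3.50. Of these 9, edgeR called 0 while 6 had an unadjusted p under 0.05, against 7.72% of all genes. For CFZ_EA against CFZ all 9 had a positive log2 fold change, with a median of 3.97. There 0 were called while 7 had an unadjusted p under 0.05, against 3.09% of all genes. Genes of a list share the same libraries, so such counts are not independent. None of the 10 markers was at 0 in any library. Kcnj3 did not follow Nppa, and Bmp10 had the library order of Nppa except for CFZ_EA replicate 1, where Bmp10 was lowest. Kcnj3 measured 0.803 and 2.30 FPKM in CFZ_EA, 1.08 and 0.981 FPKM in CFZ, and 0.739 and 0.788 FPKM in control. Bmp10 measured 0.0117 and 55.7 FPKM in CFZ_EA, 0.0942 and 0.0241 FPKM in CFZ, and 22.6 and 0.167 FPKM in control. Epicardial markers, 8 genes of the heart's outer layer, summed to 5.07 and 13.7 FPKM in CFZ_EA, 4.77 and 4.17 FPKM in CFZ, and 22.8 and 56.2 FPKM in control, also lowest in CFZ. Fibroblast markers were lowest in CFZ as well, 8 genes summing to 185 and 197 FPKM in CFZ_EA, 161 and 127 FPKM in CFZ, and 203 and 1036 FPKM in control. All 8 had a negative log2 fold change for CFZ against control, with a median of -1.32, and all 8 a positive one for CFZ_EA against CFZ, with a median of 0.39. In both edgeR called 0, with 8 and 0 at an unadjusted p under 0.05, against 7.72% and 3.09% of all genes. The part of these cells in the Nppa differences was not tested.

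Myl7, the atrial regulatory light chain of myosin, measured 241 and 1381 FPKM in CFZ_EA, 77.6 and 11.5 FPKM in CFZ, and 713 and 401 FPKM in control. The ratio of Nppa to Myl7 in FPKM was 2.67 and 2.81 in CFZ_EA, 3.01 and 16.2 in CFZ, and 2.65 and 2.70 in control. In 5 of 6 libraries, from all 3 groups, this ratio lay between 2.65 and 3.01, although Nppa itself spanned 233 to 3882 FPKM among them. Myl4, the atrial essential light chain, varied likewise, with ratios of Nppa to Myl4 of 15.0 and 18.1 in CFZ_EA, 16.7 and 101 in CFZ, and 16.7 and 16.2 in control. CFZ replicate 2 was the library outside both ranges: its Myl7 and Myl4 were the lowest of all, at 11.5 and 1.85 FPKM, while its Nppa was still 187 FPKM.

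Myl2, the ventricular regulatory light chain, varied less than Nppa, with 4513 and 4222 FPKM in CFZ_EA, 4686 and 5290 FPKM in CFZ, and 4187 and 3709 FPKM in control. The 4 ventricular markers summed to 9334 and 8379 FPKM in CFZ_EA, 9508 and 10457 FPKM in CFZ, and 8643 and 7650 FPKM in control, highest in CFZ. All 3 tested ones were higher in CFZ than in control without overlap, against 12.5% of all genes. Their median log2 fold change was 0.30, and edgeR called 0. This was not particular to ventricular markers. All 8 general cardiomyocyte markers had a positive log2 fold change for CFZ against control, with a median of 0.25. Of these 8, 4 were higher in CFZ without overlap, and edgeR called 0. Nppa reached 14.3% and 91.9% of the Myl2 level in CFZ_EA, 4.98% and 3.53% in CFZ, and 45.1% and 29.2% in control. In these whole-tissue samples fewer atrial cells and less Nppa RNA per cell cannot be told apart, and the part of the atrial markers in the Nppa differences was not tested.

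**Figure D3:**
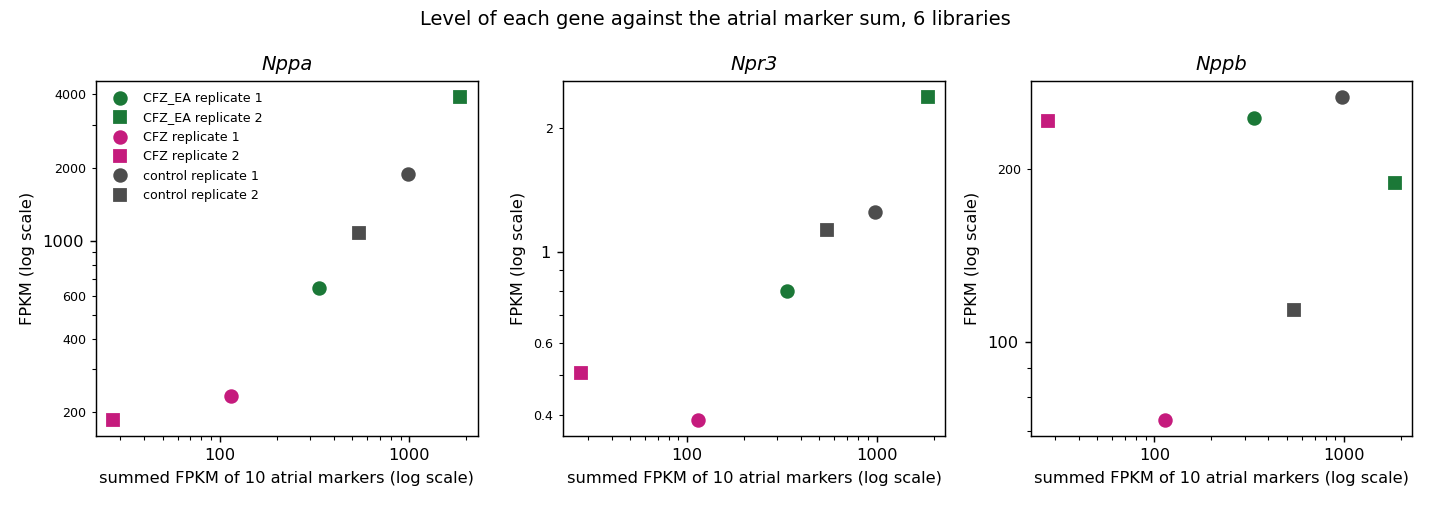
FPKM of Nppa, Npr3 and Nppb against the summed FPKM of 10 atrial markers in each of the 6 libraries, both on log scales, coloured by group with circles for replicate 1 and squares for replicate 2. Nppa and Npr3 are lowest in the CFZ libraries, where the atrial sum is 114 and 27.5 FPKM, and highest in CFZ_EA replicate 2, while Nppb is 189 FPKM at the highest atrial sum and 242 FPKM at the lowest.

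Nppb, the gene of BNP (ENSMUSG00000029019), measured 245 and 189 FPKM in CFZ_EA, 73.1 and 242 FPKM in CFZ, and 266 and 114 FPKM in control. The lowest libraries were CFZ replicate 1 and control replicate 2, and the other 4, from all 3 groups, lay between 189 and 266 FPKM. All 3 groups overlapped. Replicates differed 1.29-fold in CFZ_EA, 3.31-fold in CFZ and 2.35-fold in control, and 0.552% of all tested genes differed more between the CFZ libraries.

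The means of Nppb were 217 ± 39.2 FPKM in CFZ_EA, 158 ± 120 FPKM in CFZ and 190 ± 108 FPKM in control (SD, n = 2 each). For CFZ against control the log2 fold change was -0.21 ± 0.65 (95% interval -1.81 to 1.38, edgeR adjusted p = 0.947), for CFZ_EA against CFZ it was 0.44 ± 0.65 (-1.16 to 2.04, edgeR adjusted p = 0.9997), and for CFZ_EA against control it was 0.23 ± 0.65 (-1.37 to 1.82, edgeR adjusted p = 0.964). These intervals leave room for a change of over 2-fold either way. Its sign turned in each comparison when 1 library was left out: without CFZ replicate 1 it was 0.43 for CFZ against control and -0.20 for CFZ_EA against CFZ. Without control replicate 1 it was 0.63 for CFZ against control, and without control replicate 2 it was -0.30 for CFZ_EA against control.

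The peptide genes did not keep a fixed ratio. Nppa exceeded Nppb 2.64-fold and 20.5-fold in CFZ_EA, 3.19-fold in CFZ replicate 1, and 7.08-fold and 9.54-fold in control, whereas in CFZ replicate 2 the ratio was 0.770, with Nppb above Nppa. Pearson's r between them over the 6 libraries, on log2(FPKM + 1), was 0.29.

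**Figure D4:**
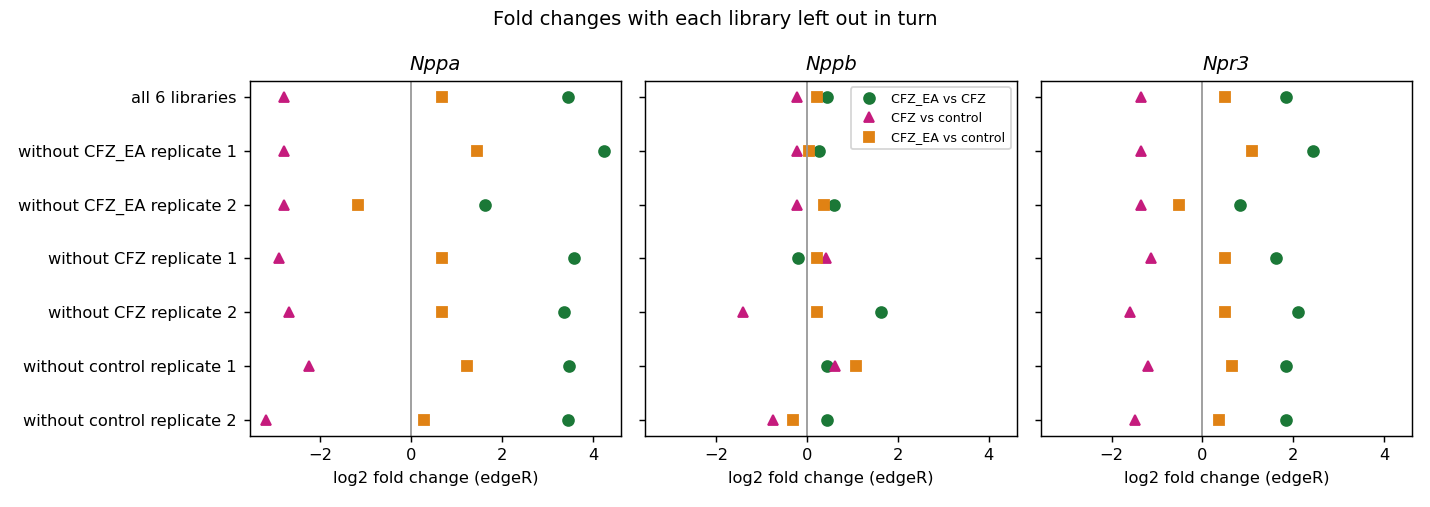
Log2 fold changes of Nppa, Nppb and Npr3 from edgeR with all 6 libraries (top) and with each library left out in turn, for CFZ_EA against CFZ (circles), CFZ against control (triangles) and CFZ_EA against control (squares). Nppa and Npr3 keep their sign in the circles and triangles, and their squares are negative, at -1.17 and -0.52, without CFZ_EA replicate 2.

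Npr3, the clearance receptor (ENSMUSG00000022206, chromosome 15, 11839896 to 11907287), was the scarcest of the 7 and varied with Nppa. It measured 0.803 and 2.38 FPKM in CFZ_EA, from 540 and 1854 estimated counts, 0.390 and 0.507 FPKM in CFZ, from 262 and 331 counts, and 1.25 and 1.13 FPKM in control, from 734 and 585 counts. The CFZ libraries lay below all others, and the CFZ_EA libraries lay on either side of control.

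Mean Npr3 levels were 1.59 ± 1.11 FPKM in CFZ_EA, 0.448 ± 0.0826 FPKM in CFZ and 1.19 ± 0.0820 FPKM in control (SD, n = 2 each). Its log2 fold change was -1.35 ± 0.51 for CFZ against control (95% interval -2.59 to -0.10, edgeR adjusted p = 0.621), and from -1.60 to -1.13 with 1 library left out. For CFZ_EA against CFZ, where Npr3 was tested only through the CFZ_EA level, it was 1.83 ± 0.51 (95% interval 0.58 to 3.09, edgeR adjusted p = 0.9997), and 0.82 without CFZ_EA replicate 2. Against control it was 0.49 ± 0.50 in CFZ_EA (edgeR adjusted p = 0.894), and -0.52 without CFZ_EA replicate 2.

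In the heart Npr3 is known as a gene of the endocardium, the inner lining of the chambers, and the summed endocardial markers were also lowest in CFZ. The 5 markers summed to 37.8 and 56.8 FPKM in CFZ_EA, 19.3 and 24.0 FPKM in CFZ, and 40.8 and 60.2 FPKM in control. This sum was highest in control replicate 2, whereas Npr3 was highest in CFZ_EA replicate 2. Cytl1, a secreted cytokine-like protein, measured 18.4 and 26.3 FPKM in CFZ_EA, 7.82 and 9.29 FPKM in CFZ, and 18.7 and 21.4 FPKM in control. Plvap, a protein of endothelial diaphragms, measured 12.3 and 20.8 FPKM in CFZ_EA, 4.31 and 6.95 FPKM in CFZ, and 12.8 and 27.2 FPKM in control. Nfatc1, a transcription factor of the endocardium, measured 2.15 and 2.35 FPKM in CFZ_EA, 2.83 and 2.57 FPKM in CFZ, and 2.69 and 3.15 FPKM in control. Unlike Npr3, it was lower in both CFZ_EA libraries than in both CFZ libraries. Vwf, another of the 5, measured 4.56 and 6.80 FPKM in CFZ_EA, 4.20 and 4.91 FPKM in CFZ, and 6.01 and 7.82 FPKM in control. Its CFZ and CFZ_EA values overlapped. Endocardial markers had 4 of 4 tested members with a negative log2 fold change for CFZ against control and 3 of 4 with a positive one for CFZ_EA against CFZ, with medians of -0.85 and 0.86. In each edgeR called 0, while 2 had an unadjusted p under 0.05, against 7.72% and 3.09% of all genes. General endothelial markers, 8 genes, summed to 408 and 364 FPKM in CFZ_EA, 472 and 424 FPKM in CFZ, and 371 and 334 FPKM in control. Aqp1 was the largest of them in every library, with 245 and 189 FPKM in CFZ_EA, 278 and 239 FPKM in CFZ, and 178 and 137 FPKM in control. The order of the sums was therefore not shared by the list. For CFZ against control 5 of the 8 had a positive and 3 a negative log2 fold change, with a median of 0.05. The part of endocardial or atrial tissue in the Npr3 differences was not tested.

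The signalling receptors were steadier. Npr1, the ANP and BNP receptor (ENSMUSG00000027931, chromosome 3, 90450591 to 90465866), measured 6.39 and 7.36 FPKM in CFZ_EA, 7.45 and 7.53 FPKM in CFZ, and 8.14 and 9.16 FPKM in control. In FPKM the 3 groups did not overlap, in the order CFZ_EA, CFZ and control. Over all genes 33.3%, 32.8% and 32.6% did not overlap for CFZ against control, CFZ_EA against CFZ and CFZ_EA against control. The share separating all 3 groups was not computed. FPKM does not carry the edgeR scaling, and without CFZ_EA replicate 1 the log2 fold change of Npr1 for CFZ_EA against CFZ was 0.0075. The log2 fold change was -0.15 ± 0.13 for CFZ against control (95% interval -0.47 to 0.17, edgeR adjusted p = 0.784), -0.12 ± 0.13 for CFZ_EA against CFZ (-0.44 to 0.21, edgeR adjusted p = 0.9997) and -0.26 ± 0.13 for CFZ_EA against control (-0.59 to 0.06, edgeR adjusted p = 0.848).

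Npr2, the receptor of C-type natriuretic peptide (ENSMUSG00000028469, chromosome 4, 43631935 to 43651244), measured 10.8 and 11.02 FPKM in CFZ_EA, 11.2 and 9.84 FPKM in CFZ, and 11.6 and 11.2 FPKM in control. Both control libraries were the highest, and all 6 lay within 1.18-fold. Its log2 fold changes were -0.07 ± 0.12 for CFZ against control, 0.07 ± 0.12 for CFZ_EA against CFZ and -0.0011 ± 0.12 for CFZ_EA against control, with 95% intervals from -0.36 to 0.36 over the 3. The clearance receptor made up 4.45% and 11.5% of the summed FPKM of the 3 receptors in CFZ_EA, 2.05% and 2.84% in CFZ, and 5.94% and 5.25% in control.

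The processing proteases differed little between groups. Corin, which cuts pro-ANP (ENSMUSG00000005220, chromosome 5, 72300025 to 72504473), measured 12.2 and 14.1 FPKM in CFZ_EA, 12.8 and 10.8 FPKM in CFZ, and 12.1 and 12.05 FPKM in control. CFZ_EA replicate 2 was the highest and CFZ replicate 2 the lowest, with the control libraries alike. The log2 fold change was 0.02 ± 0.13 for CFZ against control (95% interval -0.31 to 0.35, edgeR adjusted p = 0.983), 0.17 ± 0.13 for CFZ_EA against CFZ (-0.16 to 0.50, edgeR adjusted p = 0.9997) and 0.19 ± 0.13 for CFZ_EA against control (-0.14 to 0.51, edgeR adjusted p = 0.867). The sign for CFZ against control was negative, at -0.04, with counts scaled by library totals only.

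Furin, the proprotein convertase of the secretory pathway (ENSMUSG00000030530, chromosome 7, 80388585 to 80403322), measured 9.16 and 8.65 FPKM in CFZ_EA, 9.69 and 7.98 FPKM in CFZ, and 8.10 and 10.7 FPKM in control. The highest was control replicate 2, and all 3 groups overlapped. Its log2 fold changes were -0.03 ± 0.14, 0.03 ± 0.14 and -0.0055 ± 0.14 for CFZ against control, CFZ_EA against CFZ and CFZ_EA against control, with 95% intervals from -0.36 to 0.36 over the 3. Corin exceeded Furin in every library, by 1.33 and 1.63 times in CFZ_EA, 1.32 and 1.35 times in CFZ, and 1.49 and 1.13 times in control.

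Among other genes of the pathway, 38 were in the table and 24 were tested. They act in peptide supply and clearance, in convertase cleavage, downstream of cyclic GMP, or as transcription factors known at the peptide promoters. For CFZ against control edgeR called 0 of 24 in either direction, with 0 at an unadjusted p under 0.05, against 7.72% of all genes, and a median log2 fold change of -0.02. In CFZ_EA against CFZ it called 0, with 1 at an unadjusted p under 0.05, against 3.09% of all genes, and a median of 0.03. In CFZ_EA against control it called 0, with 2 at an unadjusted p under 0.05, against 5.13% of all genes, and a median of 0.04. These counts are near the share over all genes, and the 3 genes, Pam, Ppp1r12a and Gucy1a1, are described as values.

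Pam, an amidating enzyme abundant in atrial granules, where it binds pro-ANP, measured 28.6 and 53.4 FPKM in CFZ_EA, 23.8 and 17.0 FPKM in CFZ, and 35.6 and 31.1 FPKM in control. It was lowest in CFZ and highest in CFZ_EA replicate 2, as Nppa was. The log2 fold change of Pam was 1.03 ± 0.32 for CFZ_EA against CFZ (edgeR adjusted p = 0.9997) and -0.66 ± 0.32 for CFZ against control (edgeR adjusted p = 0.670). Gucy1a1, a subunit of the soluble guanylyl cyclase that makes cyclic GMP in response to nitric oxide, measured 1.46 and 0.798 FPKM in CFZ_EA, 1.48 and 1.34 FPKM in CFZ, and 2.02 and 2.62 FPKM in control. Its log2 fold change for CFZ_EA against control was -0.97 ± 0.29 (edgeR adjusted p = 0.848). Ppp1r12a, a regulatory subunit of myosin phosphatase, measured 1.84 and 2.34 FPKM in CFZ_EA, 1.78 and 0.426 FPKM in CFZ, and 0.537 and 0.873 FPKM in control, with a log2 fold change of 1.64 ± 0.61 for CFZ_EA against control (edgeR adjusted p = 0.848). It was tested only through CFZ_EA, where it was highest, as its mean over the CFZ and control libraries was 0.903 FPKM.

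Nppc, the gene of C-type natriuretic peptide, was listed at 0 in 5 of 6 libraries and at 0.102 FPKM in CFZ replicate 1. Mme, the peptide-degrading enzyme neprilysin, lay between 0.0572 and 0.197 FPKM, and the insulin-degrading enzyme Ide, which also cleaves ANP, between 5.21 and 6.28 FPKM. Pcsk6, the convertase that activates corin, measured 13.6 and 12.4 FPKM in CFZ_EA, 15.1 and 10.6 FPKM in CFZ, and 13.6 and 17.8 FPKM in control. Of the cyclic GMP effectors, the kinase gene Prkg1 lay between 0.244 and 0.411 FPKM and the phosphodiesterase gene Pde5a between 0.141 and 0.304 FPKM, both under the filter and untested.

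Gata4, a GATA factor known to bind both peptide promoters, measured 34.4 and 31.6 FPKM in CFZ_EA, 35.0 and 33.8 FPKM in CFZ, and 36.4 and 34.5 FPKM in control. CFZ and control hearts differed by 0.01 ± 0.12 in log2 Gata4 level (edgeR adjusted p = 0.993). Tbx5, a T-box factor, measured 4.90 and 8.12 FPKM in CFZ_EA, 5.07 and 4.03 FPKM in CFZ, and 6.96 and 4.43 FPKM in control, with a log2 fold change of 0.53 ± 0.34 for CFZ_EA against CFZ (edgeR adjusted p = 0.9997). In the 9 tested transcription factors edgeR called 0 in each comparison, with 0 at an unadjusted p under 0.05. Over all genes the shares at that p were 7.72% for CFZ against control, 3.09% for CFZ_EA against CFZ and 5.13% for CFZ_EA against control. Log2 fold changes of the 9 ran from -0.38 to 0.17 for CFZ against control.

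**Figure D5:**
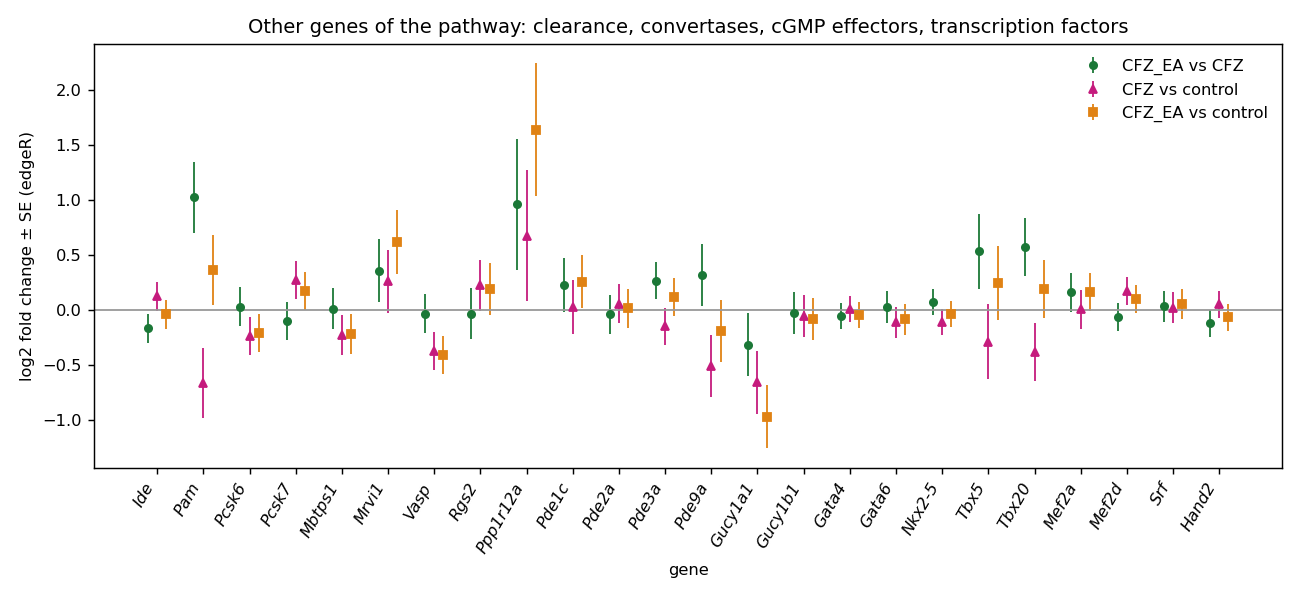
Log2 fold changes ± SE from edgeR for the 24 other pathway genes tested, for CFZ_EA against CFZ (circles), CFZ against control (triangles) and CFZ_EA against control (squares). Most points lie near 0; Pam is at 1.03 for CFZ_EA against CFZ, and Ppp1r12a and Gucy1a1 are at 1.64 and -0.97 for CFZ_EA against control.

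The genes whose levels most resembled each member over the 6 libraries, by Pearson's r on log2(FPKM + 1), are given as a description, since the libraries share 3 groups and many genes reach a high r over so few points. For Nppa they were Mt3, Tmem163 and Dkk3 (r = 0.996, 0.991 and 0.989), and 47 genes had r above 0.95. Dkk3 is one of the atrial markers and measured 6.40 and 26.4 FPKM in CFZ_EA, 1.60 and 0.541 FPKM in CFZ, and 16.5 and 9.67 FPKM in control. For Npr3 they were Ddx3x, Cilp2 and Rfc1 (r = 0.992, 0.985 and 0.983). The r of Npr3 with Nppa was 0.96, the highest between any pair of the 7 genes.

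For Nppb they included Fundc1 and Nudt8 (r = 0.968 and 0.942). Fundc1, a mitophagy receptor of the outer mitochondrial membrane, measured 5.67 and 5.18 FPKM in CFZ_EA, 4.51 and 5.44 FPKM in CFZ, and 5.58 and 4.61 FPKM in control, lowest in the same libraries as Nppb. For Npr1 they were Mest, Sac3d1 and Babam2, for Npr2 Ankle2, Trp53bp2 and Col4a5, for Corin Tlk2, Tjp1 and Hnrnpdl, and for Furin Smcr8, Pdcd11 and Lta4h, with r from 0.979 to 0.995.

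Models on the opposite strand overlap Nppa, Npr1, Npr2, Npr3 and Corin. Gm13054, antisense to Nppa, measured 0.900 and 4.81 FPKM in CFZ_EA, 0.548 and 0.250 FPKM in CFZ, and 1.76 and 1.69 FPKM in control, low and high in the libraries where Nppa was. The use of strand in counting is not stated, so reads of the sense and antisense genes cannot be told apart. The opposite-strand models reached at most 4.81 FPKM at Nppa, 0.501 FPKM at Npr1, 2.09 FPKM at Npr2 and 0.161 FPKM at Npr3, and those at Corin have no value here.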

How the data were processed

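RNA of 6 mouse heart libraries was sequenced, 2 in each of 3 groups. The labels' protocols describe an RNA integrity cut-off of 7, poly(dT) selection, dUTP strand marking and paired reads of 150 bases. StringTie 1.3.4d, HISAT2 2.0.4, cutadapt 1.9 and the build GRCm38 are listed, without roles, in the submitters' processing notes. Annotation release and strand use: not given in the sources used here. An FPKM value and a count for each gene and library were deposited by the authors, per the file headers. The deposited counts were treated as estimated counts, because 42.2% to 43.3% of those from 1 to 20 were multiples of 4, and one unit may then be a fraction of a read, with more counting error than the totals imply.

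Genes averaging 1 FPKM or more (10329) were tested with edgeR 4.0.16 (quasi-likelihood, TMM factors of 0.955 to 1.08, all libraries, group as the only term, R 4.3.3). Adjusted p-values are Benjamini-Hochberg over all these genes, with 0.05 as the threshold, and standard errors and intervals follow from the F statistic. No pair of libraries was identical. The labels do not tie replicates to separate mice; the p-values then reflect only the spread between these libraries, possibly technical. The edgeR steps were also run on simulated counts, drawn without the excess of multiples of 4. That run does not show how the steps fare on the deposited counts. Gene positions matched GENCODE M21 for 6 of the 7 genes, and the deposited Furin model is shorter. The members, gene lists and tests were chosen with earlier results of these data known. By rule the text names the 7 genes, other pathway genes with an unadjusted p under 0.05, 7 further pathway genes, and the 3 genes most like each member, of which 1 is not reported here; Ide, the markers and the overlapping models were added after their values were seen. Alternatives covered filters, scaling, DESeq2 1.42.0, limma 3.58.1 on log2(FPKM + 1) or log2(FPKM + 0.1), counts divided by 4, the replicate number and each library left out; leaving out both control replicate 2 and CFZ_EA replicate 2 was added after seeing the data. The 4 lung epithelial markers were not analysed here.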

Additional observations from a re-analysis of the deposited data

How the results depend on the processing

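No member was called by edgeR under any alternative except Nppa for CFZ against control without control replicate 2 and CFZ_EA replicate 2 together (1 member, adjusted p = 0.00687, with the CFZ pair as the only replicates), and DESeq2 called 1 member, Nppa, for CFZ_EA against CFZ. Of 378 fold changes of the 7 genes under alternatives, 336 kept their sign and their side of the threshold, 2 passed and 40 changed sign. Counts over all genes were 3 for CFZ against control, 2 for CFZ_EA against CFZ and 0 for CFZ_EA against control. DESeq2 gave 138, 55 and 52 calls in these comparisons. Counts divided by 4 gave 1 for CFZ against control and 1 for CFZ_EA against CFZ, the fit of the 2 groups alone gave 0 for CFZ against control, and without control replicate 2 and CFZ_EA replicate 2 there were 32 for CFZ against control and 1 for CFZ_EA against control. Leaving out 1 library gave 0 to 332 calls for CFZ against control, 0 to 4 for CFZ_EA against CFZ and 0 to 231 for CFZ_EA against control, where 332 and 231 are without control replicate 1. The cause of these shifts was not tested.

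Sign changes were in values near 0 or turned on 1 library. For CFZ against control, Corin was -0.039 with library totals, -0.033 and -0.036 with limma at pseudocounts of 1 and 0.1, and -0.050 without control replicate 2 and CFZ_EA replicate 2. Furin was 0.021 with no filter, 0.018 with filterByExpr and 0.11 without both libraries. For CFZ_EA against control without both libraries, Nppa was -1.56, Nppb -0.14, Npr3 -0.65, Corin -0.0056 and Furin 0.16. There Npr2 was 0.027 with no filter, 0.025 with filterByExpr, 0.0045 with DESeq2 size factors and with DESeq2, 0.0026 without mitochondrial genes and 0.0016 with the replicate block, and Furin was 0.026, 0.024, 0.00055 and 0.00057 with no filter, filterByExpr, DESeq2 size factors and DESeq2. With 1 library left out, for CFZ against control Nppb ran from -1.40 to 0.63, Npr2 from -0.16 to 0.025, Corin from -0.058 to 0.092 and Furin from -0.16 to 0.11. For CFZ_EA against CFZ Nppb ran from -0.20 to 1.63, Npr1 from -0.24 to 0.0075 and Furin from -0.057 to 0.12. For CFZ_EA against control Nppa ran from -1.17 to 1.46, Nppb from -0.30 to 1.07, Npr2 from -0.089 to 0.099 (-0.11 without both libraries), Corin from 0.059 to 0.31, Npr3 from -0.52 to 1.08 and Furin from -0.13 to 0.13.

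The replicate number was shared by label only: deviations of replicate 1 from the group mean correlated at 0.075, -0.055 and -0.066 between pairs of groups. With it as a block edgeR called 2, 2 and 0 genes and 0 members. With 2 libraries a group, a member can differ by over 2-fold and stay uncalled, as Nppb intervals show.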
